A study of Rattus norvegicus with 9 samples.

Results

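Glycolysis, lactate and hypoxia response genes were followed through rat pXEN cells, stem cells of the primitive extraembryonic endoderm, grown in 3 media. The set was a list of 39 genes chosen for their place in the pathway, and the rule kept those with at least 10 gene-strand reads in 3 or more of the 9 libraries. That left 34 of the 17315 genes in the tables, out of 9031 genes that would meet the same count rule. All cells were of the line RX1 from WKY rats, and each medium had 3 RNA-seq libraries. The medium called T held 2% fetal bovine serum, 0.5 µM dexamethasone, and Lif, Pdgf and Egf at 10 ng/ml each, over plates coated with fibronectin at 100 ng/ml, in a base of DMEM and MCDB. LPE was serum-free, in DMEM/F12 and Neurobasal with the N2 and B27 supplements, on collagen I at 10 µg/ml, with Lif, Pdgf and Egf at 10 ng/ml each and no added dexamethasone. CPE was made like LPE but with 1 µM Chir99021, an inhibitor of Gsk3, in place of Lif. T therefore differed from both serum-free media in base, supplements, coating, serum and dexamethasone at once, whereas CPE and LPE differed in Lif and Chir99021. The glucose concentration, the oxygen tension and the cell density are not given in the sources used here. Whether the 3 libraries of a medium came from separate cultures is not said in the labels, and p-values then measure only library-to-library spread, possibly technical.

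Glycolysis splits glucose to pyruvate in the cytosol. Its early enzymes spend ATP to phosphorylate the sugar, its later enzymes earn ATP back, and pyruvate is then either reduced to lactate and exported or oxidised in mitochondria. Many of these genes are targets of Hif1a, the transcription factor subunit that oxygen-dependent prolyl hydroxylases mark for destruction, and the pentose phosphate branch draws on the same sugar phosphates to make ribose and NADPH. Proliferating embryonic cells are known to run glycolysis at a high rate.

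Gene reads numbered 1698764 to 2161228 per library in T, 3119049 to 3233526 under LPE and 3127352 to 4418465 under CPE, and the 34 genes took 1.13% to 1.44% of them. Levels are given as CPM, counts scaled to library size with TMM factors, and not per transcript length, so levels of different genes are not compared. Replicates were noisier in LPE and CPE than in T, with log2 CPM correlations across genes of 0.867 to 0.91 in LPE, 0.906 to 0.943 in CPE and 0.970 to 0.982 in T. Fewer genes had at least 1 read in LPE (8607 to 9314) than in T (10143 to 10621), and 26 to 92 genes had exactly 1 read in an LPE or CPE library against 511 to 791 in T, so a low gene at 0 in a serum-free library is not shown to be absent. Endoderm markers were present in every medium, Gata4 at 903 ± 80.3 CPM in T, 836 ± 42.2 under LPE and 927 ± 31.3 under CPE (mean with SD, 3 libraries each). Of the 4 pluripotency markers, Nanog and Sox2 had no reads. With Esrrb and Utf1 they summed to 0.579 to 2.73 CPM in T, 0 in LPE and 0 to 8.70 in CPE. The 9 endoderm markers together ran from 8527 to 9159 CPM in T, 16211 to 18239 under LPE and 9324 to 11134 under CPE. By its means Lama1 weighed most, at 2780 ± 533, 9735 ± 1268 and 4623 ± 583 CPM. Pdgfra went the other way, at 464 ± 24.1, 290 ± 25.1 and 259 ± 28.3 CPM. Sox17 (1190 ± 168 to 660 ± 99.1) and Dab2 (525 ± 46.5 to 210 ± 34.0) were also lower in CPE than in T. At an edgeR adjusted p under 0.05, 4 of the 9 were higher and 1 lower in LPE than in T (15.0% and 14.7% of all genes were). In CPE 4 were higher and 3 lower (16.8% and 15.3%). The 5 fibroblast markers (Col1a2, Dcn and Lum at 0 throughout) summed to 1.39 to 31.3 CPM in T, and none was read in LPE or CPE. Those of endothelium and blood (4 in the tables, with Ptprc at 0) summed to 22.9 to 33.0 CPM in T, 65.4 to 96.0 under LPE and 17.0 to 22.7 under CPE, and the 3 trophoblast markers to 0.930 to 2.73, 0 to 3.11 and 12 to 29.0 CPM, with Cdx2 at 0 outside CPE. The part of these markers in the results was not tested. In bulk RNA, fewer cells of a type and less RNA per cell cannot be told apart.

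Of the 39 genes, Egln1 was not analysed here and 4 fell under the rule. Tpi1, the gene of triosephosphate isomerase, which every cell needs for glycolysis, had only 2 reads in each of 2 T libraries and none elsewhere, and Eno2 had none at all. RefSeq names 3 pseudogenes after Tpi1, and reads with more than 1 mapping place were assigned to no gene, and the part of this in its low count was not tested. Just outside the rule lay Aldoc and Ankrd37, each with 10 or more reads in 2 libraries. Just inside lay Ndrg1, which met the rule through its 3 CPE libraries alone, and Pfkfb3 with 5 libraries, while 29 members reached 10 reads in all 9. Pfkfb3 also needed its CPE libraries, since outside CPE only LPE replicates 1 and 3 reached 10 reads. The same limit on reads touches Gapdh (79 pseudogenes named after it in RefSeq), Eno1 (30), Ldha (30), Pkm (19), Pgam1 (13), Aldoa (9), Bnip3 (9) and Pgk1 (8). Their levels may be under-counted and their fold changes are uncertain. Reads mapping to several places made up 64.9% to 67.6% of all reads in T, 54.2% to 59.9% in LPE and 51.7% to 58.2% in CPE, and the part of this difference in the results was not tested. Reads on either strand came to at most 103% of the gene-strand total of a member, except 115% for Bnip3, and using them changed no member's call.

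The genes did not move as one block in any medium. In LPE against T, 9 of the 34 members were called higher (15.0% of all 9130 genes tested were) and 6 lower (14.7%), together 44.1% of the members against 29.7% of all genes, where called means an adjusted p under 0.05 by edgeR's quasi-likelihood test. In CPE against T, 9 were higher (16.8% of all genes were) and 9 lower (15.3%), together 52.9% against 32.1%. In CPE against LPE, 7 were higher (9.56% of all genes were) and 7 lower (8.23%), together 41.2% against 17.8%. Ndrg1, which met the count rule only through CPE, had to differ there, and without it 8 of 33 members were higher in CPE than in T and 6 higher than in LPE (51.5% and 39.4% called in all). These shares describe a list chosen with earlier results of these data known. Median log2 fold changes of the members were -0.19, -0.18 and 0.02 in the 3 comparisons, beside -0.03, -0.01 and 0.01 over all genes tested. The comparisons of LPE and CPE with T share the T libraries and are therefore not independent of each other. Over the 3 comparisons 23 members were called at least once, 13 of them with a change of at least 2-fold, Ndrg1 included in both counts.

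**Figure D1:**
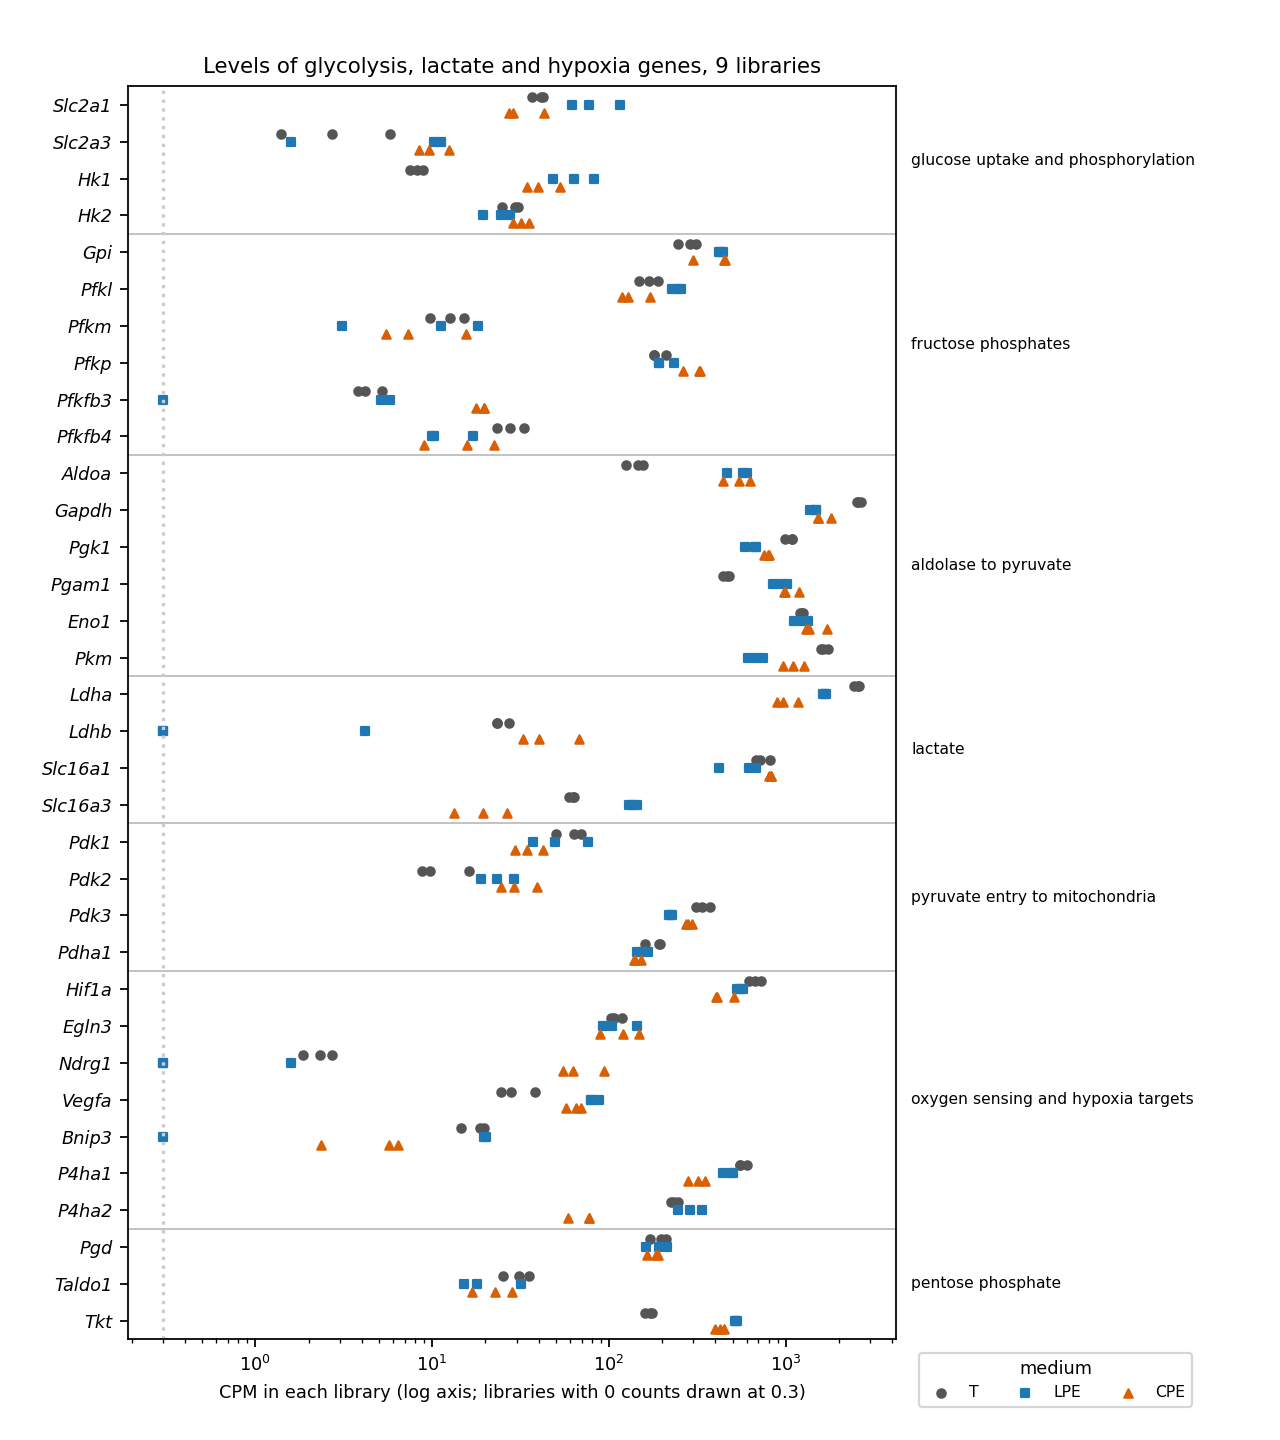
Level of each of the 34 members in each of the 9 libraries, in CPM on a log axis, grouped by pathway step, with T as grey circles, LPE as blue squares and CPE as orange triangles. Libraries with 0 reads are drawn at 0.3 CPM, which is a drawing position and not a value. Ndrg1 and Ldhb lie higher in every CPE library than in any LPE library, and Slc16a3 and P4ha2 lower.

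Several members that differed between CPE and LPE are textbook hypoxia targets, so their promoters are shown here, from 250 bases before to 50 bases after the start, as RefSeq gives them on GRCr8. The letters searched were ACGTG and GCGTG on both strands, the core of the hypoxia response element, and they stand in capitals (CACGT and CACGC are the other strand, and CACGTG is read on both). Ldha lies at chr1:106507842-106508141, Slc2a1 at chr5:138002272-138002571, P4ha2 at chr10:38743644-38743943 and Slc16a3 at chr10:106712078-106712377, all on the plus strand. Ldhb, which moved the other way, lies at chr4:177177359-177177658 on the minus strand.
Ldha: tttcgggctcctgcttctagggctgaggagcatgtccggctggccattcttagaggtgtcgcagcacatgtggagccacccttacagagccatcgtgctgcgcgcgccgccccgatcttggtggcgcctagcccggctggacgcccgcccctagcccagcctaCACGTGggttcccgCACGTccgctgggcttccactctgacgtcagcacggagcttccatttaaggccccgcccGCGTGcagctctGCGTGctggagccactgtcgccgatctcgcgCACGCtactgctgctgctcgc
Slc2a1: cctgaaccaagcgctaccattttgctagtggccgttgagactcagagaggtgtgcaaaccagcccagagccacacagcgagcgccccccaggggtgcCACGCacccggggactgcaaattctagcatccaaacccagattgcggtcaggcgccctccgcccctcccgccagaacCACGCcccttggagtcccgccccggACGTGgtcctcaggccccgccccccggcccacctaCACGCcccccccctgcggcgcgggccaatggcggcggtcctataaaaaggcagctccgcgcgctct
P4ha2: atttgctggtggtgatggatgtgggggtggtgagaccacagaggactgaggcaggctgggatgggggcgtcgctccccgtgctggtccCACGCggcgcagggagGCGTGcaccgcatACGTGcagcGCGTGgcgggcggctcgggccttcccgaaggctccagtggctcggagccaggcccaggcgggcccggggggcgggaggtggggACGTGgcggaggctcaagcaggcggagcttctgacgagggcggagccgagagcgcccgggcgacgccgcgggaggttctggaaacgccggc
Slc16a3: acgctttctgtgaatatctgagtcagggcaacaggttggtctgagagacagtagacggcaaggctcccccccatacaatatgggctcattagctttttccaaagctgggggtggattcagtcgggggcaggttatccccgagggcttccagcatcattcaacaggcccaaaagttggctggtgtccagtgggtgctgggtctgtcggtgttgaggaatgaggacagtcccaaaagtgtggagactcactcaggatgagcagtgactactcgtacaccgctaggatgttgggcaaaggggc
Ldhb: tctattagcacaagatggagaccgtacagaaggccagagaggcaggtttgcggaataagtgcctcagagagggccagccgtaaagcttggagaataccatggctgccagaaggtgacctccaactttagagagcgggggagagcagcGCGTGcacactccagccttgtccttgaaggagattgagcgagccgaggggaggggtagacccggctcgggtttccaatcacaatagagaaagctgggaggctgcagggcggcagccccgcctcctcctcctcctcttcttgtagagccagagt
Capital stretches numbered 5 in Ldha, 4 in Slc2a1, 5 in P4ha2, 0 in Slc16a3 and 1 in Ldhb. These promoters do not stand for the rest. The other members lower in CPE than in LPE had 3 (P4ha1), 2 (Pfkl) and 0 (Tkt). The others higher in CPE had 4 (Pdk3), 3 (Slc16a1), 2 (Pfkp) and 0 (Pkm). At least 1 match stood in 21 of the 31 members with a promoter in the table and in 41.6% of all 33469 promoters of the same length. Among members called lower in CPE than in LPE it was 5 of 7, and among those called higher 4 of the 5 with a promoter. The Tcf/Lef core CTTTGA, searched on both strands because Chir99021 activates Wnt signalling, stood in 0 of the 31 and in 16.1% of all promoters. Such a match is a run of letters in a window and not a shown binding site. Members were counted with 1 promoter per gene, whereas all promoters were not cut to 1 per gene or to genes tested here. Their shares are therefore not of like sets. Slc2a3, Pgk1 and Ndrg1 had no entry.

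Glucose entry and phosphorylation held 4 members, of which 2 were higher in LPE than in T, 1 was higher in CPE than in T and 1 was lower in CPE than in LPE. Beside the counts of this and the later steps, 15.0% of all genes were higher and 14.7% lower in LPE against T. The shares were 16.8% and 15.3% in CPE against T, and 9.56% and 8.23% in CPE against LPE. Each step holds few members, so its counts are only a description. Slc2a1, the Glut1 glucose transporter, read 41.5, 36.5 and 42.3 CPM in T replicates 1 to 3, 115, 61.9 and 76.9 in LPE and 43.1, 28.8 and 27.4 in CPE. All LPE libraries thus lay above all others, while T and CPE overlapped. It was 2.10-fold higher in LPE than in T (log2 1.07, SE 0.28, adjusted p = 0.00888) and 2.55-fold lower in CPE than in LPE (adjusted p = 0.00307). The first of these calls was lost without LPE replicate 1, the highest library (adjusted p = 0.0533). Hk1, the broadly expressed hexokinase that traps glucose in the cell, had 8.18, 7.53 and 8.83 CPM in T, 63.6, 48.2 and 82.7 under LPE and 34.2, 52.9 and 39.6 under CPE. Every serum-free library stood above every T library, and LPE and CPE overlapped. The rise was 7.86-fold in LPE (log2 2.98, SE 0.33, adjusted p = 8.66e-06) and 5.14-fold in CPE (log2 2.36, SE 0.33, adjusted p = 5.7e-05). Hk2, the inducible hexokinase, stood at 28.4 ± 3.05, 23.9 ± 4.08 and 31.9 ± 3.13 CPM in T, LPE and CPE and was not called. The log2 ratio of Hk1 to Hk2 reads within a library was -1.85 to -1.73 in T, 0.97 to 1.71 under LPE and 0.10 to 0.88 under CPE, with no overlap. Slc2a3, the Glut3 transporter, ran from 1.39 to 5.79 CPM in T, from 1.60 to 11.2 under LPE and from 8.38 to 12.4 under CPE, and no comparison called it.

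Among the 6 genes of the fructose phosphates, the isoforms of phosphofructokinase, which commits sugar to glycolysis, moved apart. In each comparison with T, 2 of the 6 were higher and 0 lower, and between CPE and LPE 1 was higher and 1 lower. Pfkl, the liver-type isoform, had 169 ± 21.3 CPM in T, 242 ± 14.2 under LPE and 139 ± 27.3 under CPE, with CPE 1.74-fold below LPE (adjusted p = 0.00209). It was also called 1.43-fold higher in LPE than in T (adjusted p = 0.0209), a call lost without T replicate 1 (0.119) or T replicate 3 (0.0739), and CPE against T passed only without CPE replicate 3 (adjusted p = 0.0403). Pfkp, the platelet-type isoform, went the other way with 190.0 ± 17.5, 206 ± 23.1 and 304 ± 34.9 CPM. It was 1.60-fold higher in CPE than in T (adjusted p = 0.00147) and 1.48-fold higher than in LPE (adjusted p = 0.00891). The log2 ratio of Pfkp to Pfkl reads was 0.10 to 0.28 in T, -0.36 to -0.13 in LPE and 0.92 to 1.36 in CPE. Pfkm, the muscle-type isoform, was low and uneven, at 3.11 to 18.3 CPM over the 9 libraries, and was not called. Gpi, which converts glucose 6-phosphate to fructose 6-phosphate, rose 1.53-fold in LPE against T, from 281 ± 32.3 to 430 ± 10.6 CPM (adjusted p = 0.00537). Its 1.42-fold rise in CPE (adjusted p = 0.0154) was lost without T replicate 2 (0.0818), CPE replicate 2 (0.0861) or CPE replicate 3 (0.07).

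Pfkfb3 and Pfkfb4 make fructose 2,6-bisphosphate, the activator of phosphofructokinase. Pfkfb3 had 3.82, 5.21 and 4.18 CPM in T, 5.75, 0 and 5.13 under LPE and 17.7, 19.5 and 19.6 under CPE. The CPE libraries lay above all others, yet neither CPE against T (4.28-fold, adjusted p = 0.089) nor CPE against LPE (5.19-fold, adjusted p = 0.0798) was called. Without LPE replicate 2, the library with no reads, both passed (adjusted p = 0.0048 and 0.0393). With all libraries kept, DESeq2 called both (0.0329 and 0.0195), and a fit of T and CPE alone called the first (0.0018). Pfkfb3 would not have met the count rule without its CPE libraries, where it was highest. These passing values are therefore no support for a difference, and its levels are given as a description. Pfkfb4 stood at 28.0 ± 5.08 CPM in T, 12.4 ± 3.99 under LPE and 15.7 ± 6.70 under CPE and was not called. Its LPE against T value (adjusted p = 0.0639) passed without LPE replicate 3 (0.0426), CPE replicate 1 (0.0488) or CPE replicate 3 (0.046), and in a fit of those 2 media alone (0.0434).

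From aldolase to pyruvate, the 6 members above the rule gave 2 higher, 3 lower and 1 not called in LPE against T, and the same numbers in CPE against T. In CPE against LPE, 2 were higher and 4 not called. Aldoa, the aldolase that cleaves fructose 1,6-bisphosphate, had 156, 125 and 145 CPM in T, 571, 607 and 467 under LPE and 632, 543 and 443 under CPE. Serum-free and T libraries did not overlap, and LPE and CPE did. It was 3.86-fold higher under LPE (log2 1.95, SE 0.15, adjusted p = 2.36e-07) and 3.80-fold under CPE (log2 1.93, SE 0.15, adjusted p = 2.13e-07). Pgam1, the phosphoglycerate mutase, had 468, 440.1 and 476 CPM in T, 1015, 844 and 938 under LPE and 976, 994 and 1186 under CPE. It was 2.02-fold (LPE) and 2.28-fold (CPE) higher than in T (adjusted p = 4.28e-06 and 7.93e-07), again with no overlap. Eno1, the enolase of the next step, stood at 1230 ± 27.6, 1226 ± 106 and 1461 ± 222 CPM. It was called in no comparison, and in CPE against T its adjusted p was 0.0883, or 0.0496 without CPE replicate 1 and 0.0345 by DESeq2.

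Transcripts of Pgk1 and Pkm, the genes of both steps that yield ATP, were lower in the serum-free media than in T. Both are among the genes with pseudogenes named above, so their fold changes are uncertain. Pkm, the pyruvate kinase gene, had 1576, 1744 and 1619 CPM in T, 741, 679 and 612 under LPE and 963, 1261 and 1099 under CPE. The 3 media did not overlap, with T highest and LPE lowest. Pkm was 2.43-fold lower in LPE than in T (log2 -1.28, SE 0.11, adjusted p = 5.49e-07), 1.49-fold lower in CPE than in T (adjusted p = 0.000753) and 1.64-fold higher in CPE than in LPE (adjusted p = 0.000276). Pgk1, the phosphoglycerate kinase, stood at 1052 ± 50 CPM in T, 645 ± 50.7 under LPE and 786 ± 26.2 under CPE, 1.63-fold and 1.34-fold lower than in T (adjusted p = 4.15e-05 and 0.00258). Its 1.22-fold difference between CPE and LPE (adjusted p = 0.0445) was lost without any 1 of the libraries except LPE replicates 1 and 2, at adjusted p-values up to 0.148. Gapdh, which makes the substrate of Pgk1 and often serves as a reference gene, was 1.79-fold (LPE) and 1.60-fold (CPE) lower (2590 ± 72.1, 1443 ± 69.3 and 1615 ± 161 CPM, adjusted p = 3.35e-06 and 2.14e-05).

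**Figure D2:**
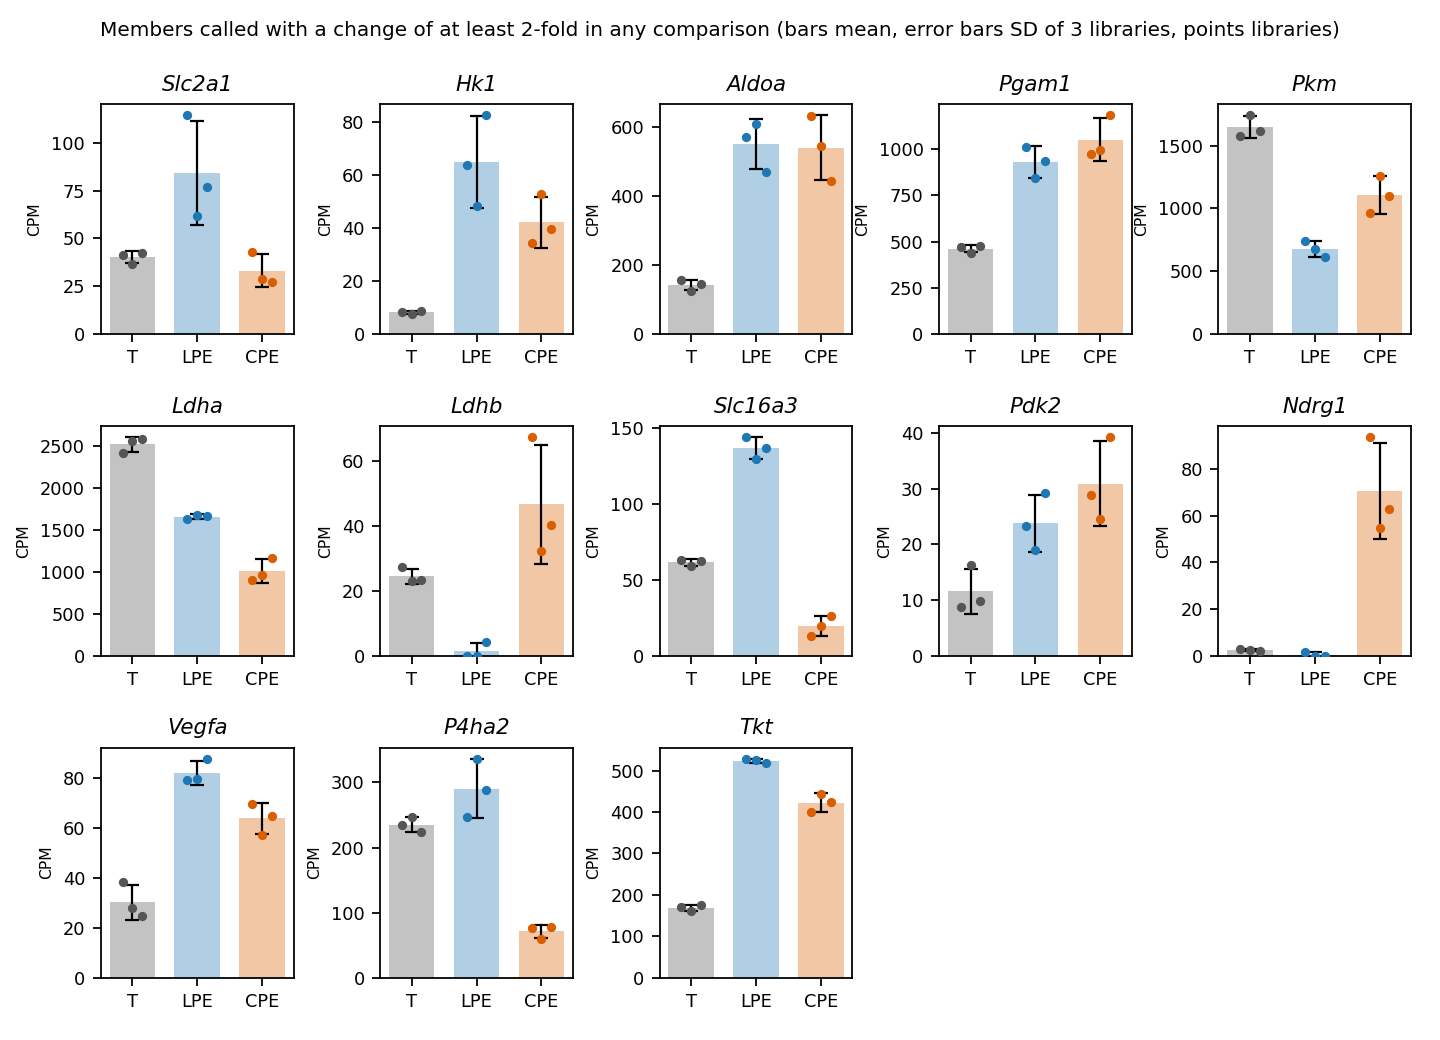
CPM of the 13 members called with a change of at least 2-fold in any comparison. Bars are means, error bars SD and points the 3 libraries of each medium, on linear axes from 0. Ndrg1, which met the count rule only through CPE, is near 0 in T and LPE and at 54.7 to 93.8 CPM in CPE. Slc16a3 is highest in LPE and lowest in CPE.

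Each of the 4 lactate genes was called between CPE and LPE, 2 higher and 2 lower in CPE (9.56% and 8.23% of all genes were). Against T, 1 was higher and 2 lower in LPE, and 0 higher and 2 lower in CPE. Ldha, the lactate dehydrogenase subunit that favours lactate formation, had 2419, 2561 and 2582 CPM in T, 1624, 1680 and 1662 under LPE and 898, 959 and 1167 under CPE. The 3 media did not overlap. Ldha was 1.52-fold lower in LPE than in T (adjusted p = 0.000181), 2.5-fold lower in CPE than in T (log2 -1.32, SE 0.10, adjusted p = 9.5e-08) and 1.64-fold lower in CPE than in LPE (adjusted p = 7.93e-05). Ldhb encodes the other subunit, which prefers the reverse reaction. It had 27.3, 23.2 and 23.2 CPM in T, 0, 0 and 4.17 under LPE and 67.5, 32.5 and 40.3 under CPE. LPE lay below both other media and CPE above T in every library. Ldhb was 17.3-fold lower in LPE than in T (log2 -4.11, SE 0.79, adjusted p = 0.00105) and 32.9-fold higher in CPE than in LPE (log2 5.04, SE 0.79, adjusted p = 0.000374), while CPE against T was not called (adjusted p = 0.282) but passed in a fit of those 2 media alone (0.0227). The size of both folds rests on LPE replicate 3, which held all 13 LPE reads. If that library was left out, the 2 remaining LPE libraries were at 0. Ldhb then stood 26.0-fold above a floor of 3 reads per library in T and 49.4-fold above it in CPE. These values hold for that subset alone and not for the 3 LPE libraries together. They are no lower bounds, since with only 26 to 58 genes at exactly 1 read in an LPE library, 0 reads does not bound the level at that floor. Without LPE replicate 2 the fold between T and LPE was 11.5. Floors of this kind cover counting error only.

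Slc16a1 and Slc16a3 encode the monocarboxylate transporters Mct1 and Mct4, which move lactate with a proton across the membrane, and Mct4 is the form known for export. Slc16a3 had 63.3, 59.1 and 62.3 CPM in T, 144, 130 and 137 under LPE and 13.3, 19.3 and 26.4 under CPE. The order LPE, T, CPE held for every library. It was 2.23-fold higher in LPE than in T (log2 1.16, SE 0.23, adjusted p = 0.00126), 3.14-fold lower in CPE than in T (log2 -1.65, SE 0.24, adjusted p = 9.05e-05) and 6.98-fold lower in CPE than in LPE (log2 -2.80, SE 0.24, adjusted p = 1.06e-06). Slc16a1 stood at 735 ± 69.3 CPM in T, 572 ± 136 under LPE and 816 ± 13.8 under CPE. Its 1.43-fold higher level in CPE than in LPE (adjusted p = 0.019) was lost without CPE replicate 1, 2 or 3 (0.0533, 0.0511 and 0.056), and LPE against T passed without LPE replicate 1 (0.0288), by DESeq2 (0.0467) and with no count filter (0.0468). The log2 ratio of Slc16a3 to Slc16a1 reads was -3.78 to -3.45 in T, -2.22 to -1.68 in LPE and -5.95 to -4.97 in CPE.

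**Figure D3:**
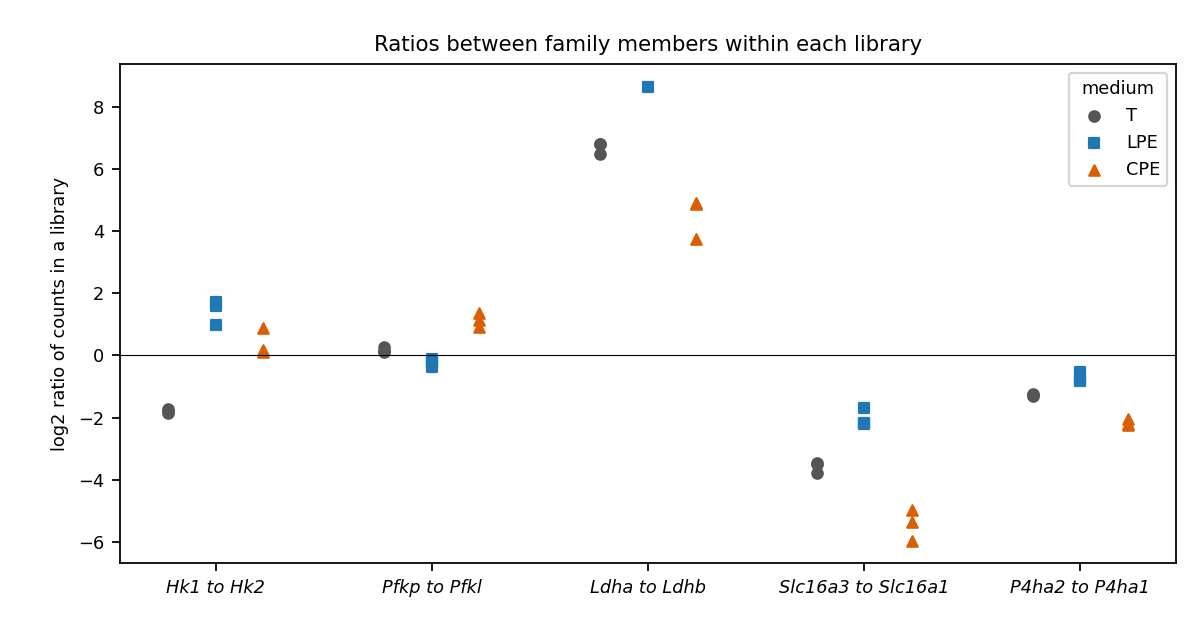
Log2 ratio of the reads of paired family members within each library, for 5 pairs in T (grey circles), LPE (blue squares) and CPE (orange triangles). Ldha to Ldhb has 1 LPE point because Ldhb had 0 reads in the other LPE libraries. Slc16a3 to Slc16a1 and P4ha2 to P4ha1 are highest in LPE and lowest in CPE.

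These within-library ratios need no scaling between libraries, and gene length cancels in their difference between media. Each of the ratios of Hk1 to Hk2, Pfkp to Pfkl, Slc16a3 to Slc16a1 and P4ha2 to P4ha1 separated all 3 pairs of media without overlap. An exact two-sided permutation test of 3 against 3 libraries gave p = 0.1 for each, which is the smallest value it can give, and 0.138 after Benjamini-Hochberg adjustment over the 22 ratio comparisons made. No ratio comparison could therefore pass a threshold of 0.05. The other ratios made did not separate all media. Slc2a1 to Slc2a3 overlapped between LPE and T, Pfkp to Pfkm between LPE and both other media, and Pfkl to Pfkm between all media. Ldha to Ldhb could be compared only between CPE and T, which did not overlap.

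Entry of pyruvate into mitochondria is governed by the pyruvate dehydrogenase complex and the Pdk kinases that switch it off. Of the 4 members, 0 were higher and 1 lower in LPE against T, 1 higher and 1 lower in CPE against T, and 1 higher and 0 lower in CPE against LPE. Pdk2 had 8.73, 16.2 and 9.76 CPM in T, 23.3, 19.0 and 29.2 under LPE and 28.9, 24.5 and 39.3 under CPE, so that every serum-free library exceeded T. It was 2.67-fold higher in CPE than in T (log2 1.42, SE 0.40, adjusted p = 0.0126), a call lost without T replicate 1 (0.0737), T replicate 3 (0.0697) or CPE replicate 3 (0.0597). LPE against T was not called (2.06-fold, adjusted p = 0.0605) but passed without LPE replicate 2 (0.0323). Pdk3 fell 1.53-fold in LPE against T, from 341 ± 31.6 to 223 ± 4.09 CPM (adjusted p = 0.000876), and stood at 283 ± 10.5 CPM in CPE. Its 1.27-fold higher level in CPE than in LPE (adjusted p = 0.0485) was lost without any 1 of the 9 libraries, at adjusted p-values of 0.0592 to 0.125. Pdk1, a hypoxia target, had 61.1 ± 9.72, 54.1 ± 20 and 35.4 ± 6.63 CPM. Its 1.73-fold fall in CPE against T (adjusted p = 0.0492) was lost without T replicate 1 (0.172), 2 (0.0658) or 3 (0.144), LPE replicate 3 (0.0556) or CPE replicate 2 (0.154) or 3 (0.105), and CPE against LPE passed without LPE replicate 2 (0.0417). Pdha1, the catalytic subunit gene of the complex, was not called at 183 ± 18.9, 155 ± 11.9 and 144 ± 6.49 CPM.

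Oxygen sensing and hypoxia targets did not share a direction. Of 7 members, 1 was higher and 0 lower in LPE against T, 2 were higher and 3 lower in CPE against T, and 1 was higher and 2 lower in CPE against LPE. Both counts of members higher in CPE include Ndrg1, which met the count rule only through CPE. Hif1a itself had 669 ± 51.9 CPM in T, 550.0 ± 21.1 under LPE and 442 ± 60.0 under CPE, and was lower in CPE, 1.51-fold against T (log2 -0.60, SE 0.11, adjusted p = 0.000757). The other comparisons of Hif1a were not called, although without CPE replicate 2 both LPE against T (adjusted p = 0.0434) and CPE against LPE (0.0199) passed, the latter also by DESeq2 with all libraries (0.0248). These are transcript levels, whereas the factor is controlled mainly through the stability of its protein, which was not measured. Egln3, an oxygen-sensing prolyl hydroxylase that Hif1a itself induces, was called nowhere, at 109 ± 8.38, 114 ± 26.9 and 119 ± 29.7 CPM. Bnip3, a mitophagy receptor, had 19.6, 14.5 and 18.6 CPM in T, 0, 19.6 and 20.2 under LPE and 2.36, 5.68 and 6.44 under CPE. It was not called, but without LPE replicate 1 its lower level in CPE passed against T (adjusted p = 0.0158) and against LPE (0.0242), and a fit of T and CPE alone also called it (0.0108). LPE replicate 1 was empty only on the gene strand. It held 24 reads counted on either strand, where LPE replicates 2 and 3 held 63 and 68, and with those counts CPE was not called against T (0.0635) or LPE (0.119).

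Vegfa, the vascular growth factor, had 38.2, 27.8 and 24.6 CPM in T, 79.3, 79.6 and 87.8 under LPE and 69.6, 57.2 and 64.7 under CPE. Both serum-free media lay above T without overlap. The rise was 2.72-fold in LPE (log2 1.45, SE 0.24, adjusted p = 0.000277) and 2.11-fold in CPE (log2 1.08, SE 0.24, adjusted p = 0.00239). Ndrg1, a stress-induced gene of the N-myc downstream-regulated family, had 2.73, 2.32 and 1.86 CPM in T, 1.60, 0 and 0 under LPE and 93.8, 54.7 and 62.8 under CPE. Only its CPE libraries had more than 5 reads, and they had 195 to 318. Since it entered the set through those libraries, its higher level in CPE is given as a description with no p-value. Its calls there are no evidence of a difference. The fitted fold between CPE and T was 30.3, and that between CPE and LPE was 123. The latter rests on 5 reads in LPE replicate 1. With that library left out, CPE stood 74.4-fold above the floor of 3 reads. That value holds for the 2 LPE libraries at 0 alone and is no lower bound, since 0 reads does not bound the level at the floor. LPE against T, not called at adjusted p = 0.0958, passed without LPE replicate 1 (0.00351), on at most 5 reads per library.

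P4ha1 and P4ha2 encode the catalytic subunits of the collagen prolyl 4-hydroxylase, which lets collagen fold and is induced in hypoxia. P4ha2 had 234, 247 and 224 CPM in T, 247, 337 and 289 under LPE and 76.7, 58.8 and 77.3 under CPE. CPE stood far below the other media, and the lowest LPE library lay only just above the highest T library. P4ha2 was lower in CPE, 3.32-fold against T (log2 -1.73, SE 0.16, adjusted p = 9.65e-07) and 4.11-fold against LPE (log2 -2.04, SE 0.16, adjusted p = 3.06e-07). P4ha1 fell less, to 317 ± 36.3 CPM in CPE from 569 ± 27.9 in T and 479 ± 35.3 in LPE, 1.8-fold and 1.51-fold (adjusted p = 3.75e-05 and 0.00158). LPE and T were not called apart for either gene. Between CPE and LPE, Slc2a1, Pfkl, Ldha, Slc16a3, P4ha1, P4ha2 and Tkt were thus lower in CPE, and Pfkp, Pgk1, Pkm, Ldhb, Slc16a1 and Pdk3 were higher. Ndrg1 was higher too, but it met the count rule only through CPE.

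**Figure D4:**
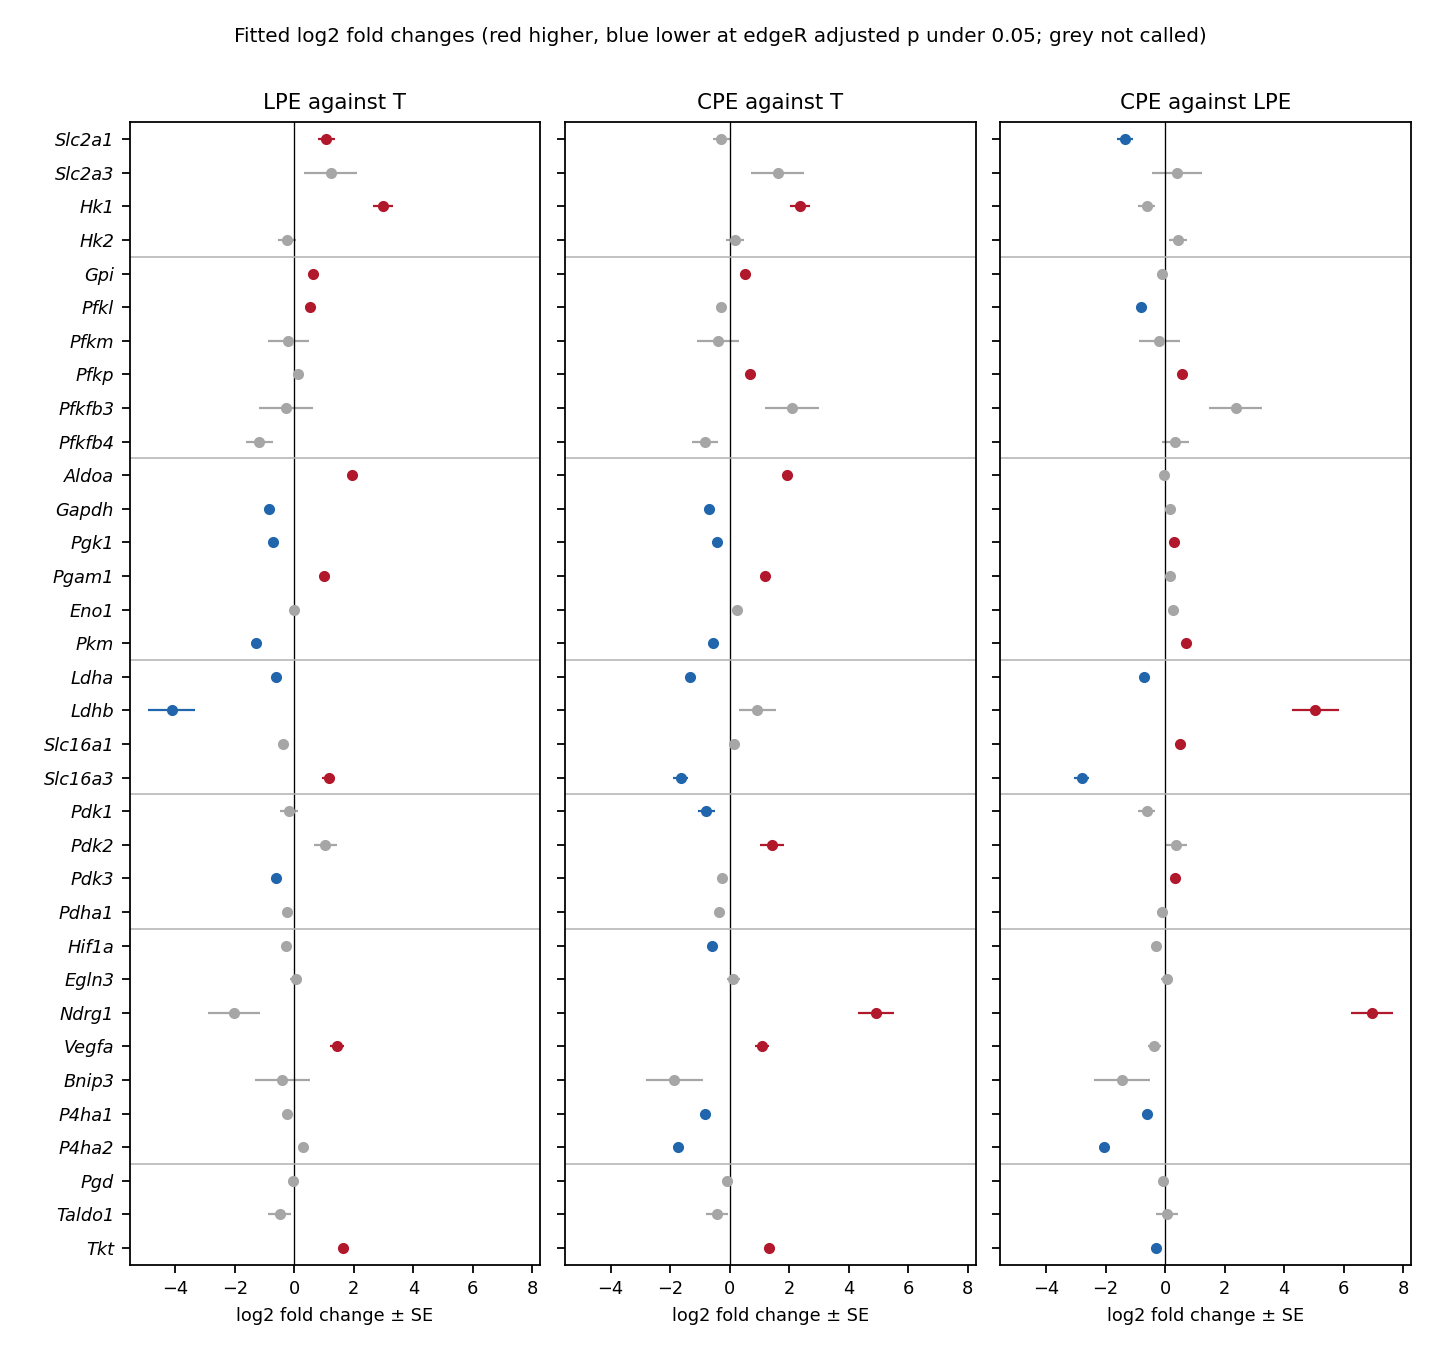
Fitted log2 fold change with its SE for the 34 members in the order of the pathway, for LPE against T, CPE against T and CPE against LPE. Red marks genes called higher and blue genes called lower at an edgeR adjusted p under 0.05, and grey those not called. The red of Ndrg1 is only a description, since it met the count rule only through CPE. Aldoa and Pgam1 are red beside blue Gapdh, Pgk1 and Pkm in both comparisons with T.

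In the pentose phosphate branch, Tkt alone of the 3 members was called. Tkt, the transketolase that links the branch back to glycolysis, had 169.7, 160.4 and 176 CPM in T, 528, 525 and 518 under LPE and 399, 445 and 425 under CPE. The media did not overlap. It was 3.10-fold higher under LPE (log2 1.63, SE 0.11, adjusted p = 4.97e-08) and 2.51-fold under CPE than in T (log2 1.33, SE 0.11, adjusted p = 2.61e-07). The 1.24-fold lower level in CPE than in LPE (adjusted p = 0.0464) was lost without any 1 of the 9 libraries, at 0.0605 to 0.116. Pgd, the second dehydrogenase of the branch, and Taldo1, the transaldolase, were called in no comparison. Pgd stood at 192 ± 19.9, 189 ± 25.2 and 179 ± 13.3 CPM and Taldo1 at 30.5 ± 5.13, 21.6 ± 8.80 and 22.6 ± 5.79 CPM in T, LPE and CPE.

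Further genes of the same pathways were read from a list of 122 symbols, of which 109 were in the tables and 73 were tested. In LPE against T, 17 were higher (23.3%, against 15.0% of all genes) and 12 lower (16.4% against 14.7%). In CPE against T the counts were again 17 (23.3% against 16.8%) and 12 (16.4% against 15.3%), and in CPE against LPE 9 (12.3% against 9.56%) and 9 (12.3% against 8.23%). The shares called lower against T lay near those of all genes. Their medians were -0.03, 0.07 and 0.10 on the log2 scale. The lists within it are small, and their counts are given as higher and lower in the same order of comparisons. The all-gene shares just given stand beside each list, and some of its counts lie near them. The examples that follow were chosen after their values were seen. For transport of glucose and lactate the counts were 3 and 3, 3 and 1, and 3 and 1 of 8. Emb, which encodes embigin, a partner of monocarboxylate transporters, was 4.40-fold lower in LPE than in T and 7.82-fold higher in CPE than in LPE (210 ± 33.1, 47.7 ± 8.38 and 373 ± 95.1 CPM, adjusted p = 1.66e-06 and 8.91e-08). Bsg, the partner of Mct1 and Mct4, was 1.56-fold lower in LPE than in T and 1.55-fold higher in CPE than in LPE (adjusted p = 0.0002 and 0.000399). Txnip, which rises with glucose and curbs its uptake, was 3.35-fold and 3.01-fold higher in LPE and CPE than in T (adjusted p = 0.000365 and 0.000687).

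In glycolysis and gluconeogenesis, 2 of 13 were higher and 1 lower in LPE against T, 2 higher and 2 lower in CPE against T, and 0 higher and 1 lower in CPE against LPE. Fbp2, a fructose bisphosphatase that runs the phosphofructokinase step backwards, went from 2.37 ± 1.96 CPM in T to 21.8 ± 8.96 in LPE and 39.6 ± 1.92 in CPE (adjusted p = 0.000359 and 3.65e-05). Adpgk, an ADP-dependent glucokinase, was 1.60-fold and 1.91-fold lower (adjusted p = 0.00292 and 0.000218). The 10 genes of pyruvate entry gave 2 and 0, 0 and 3, and 0 and 1. In the pentose phosphate branch the counts were 1 and 3, 2 and 1, and 3 and 0 of 9. The last count includes Pgls at an adjusted p of 0.0498, a call lost in 13 of 17 alternatives (0.217 with only the 2 media). Pgls, the lactonase between the dehydrogenases of the branch, was 4.73-fold (LPE) and 2.43-fold (CPE) lower than in T (adjusted p = 0.000101 and 0.00505). Prps2, which makes the ribose donor of nucleotide synthesis, was 6.92-fold higher in CPE than in LPE (adjusted p = 6.08e-05).

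Oxygen sensing gave 2 and 3, 3 and 0, and 2 and 0 of 8 genes. The first count includes Epas1 in LPE against T, a call lost in 5 of 17 alternatives. Epas1, which encodes Hif2a, was 2.28-fold higher in CPE than in T (170 ± 6.52 to 389 ± 96.2 CPM, adjusted p = 4.26e-05) and 1.65-fold higher than in LPE (adjusted p = 0.00445). Egln2, another prolyl hydroxylase, was 1.86-fold lower in LPE than in T (adjusted p = 0.00595). Of the 25 hypoxia targets, 7 were higher (28% against 15.0% of all genes) and 2 lower (8% against 14.7%) in LPE against T. In CPE against T, 7 were higher (28% against 16.8%) and 5 lower (20% against 15.3%), and in CPE against LPE 1 was higher (4% against 9.56%) and 6 lower (24% against 8.23%). The last 6 include P4hb, a subunit of the collagen prolyl 4-hydroxylase, whose call was lost in 11 of 17 alternatives. The 5 lower and 7 higher in CPE against T include Plod2 and Ero1a, whose calls there were lost in 4 and 11. Plod1, a collagen lysyl hydroxylase, was 4.63-fold (LPE) and 2.68-fold (CPE) higher than in T, and 1.73-fold lower in CPE than in LPE (adjusted p = 8.43e-08, 3.63e-06 and 0.0011). Plod2, its relative, was lower in CPE, 1.95-fold against LPE (adjusted p = 5.13e-05). The 1 target called higher in CPE than in LPE was Bhlhe40, a transcriptional repressor, at 126 ± 20.7 against 30.2 ± 11.4 CPM (4.15-fold, adjusted p = 0.000215). Cited2, which competes with Hif1a for its coactivators, was 3.65-fold and 4.18-fold higher in LPE and CPE than in T (adjusted p = 2.62e-05 and 8.11e-06).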

How the data were processed

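RNA-seq of 9 libraries was used, 3 per medium, grouped by the sample labels. Per the labels' protocols, RNA was depleted of ribosomal RNA and libraries were made with a directional kit and read for 101 cycles in pairs. STAR 2.5.1, Trimmomatic 0.33, CASAVA 1.8.2, DESeq2 and the build rn6 are named in the submitters' processing notes, and the annotation used is not given there or in the labels. The deposited files hold the authors' raw read counts per gene in 3 strand columns. Column 4 (the gene strand) was analysed, because column 3 held only 0.822% to 0.986% of the reads of both. The 4 summary lines of reads outside genes, unmapped, ambiguous or mapping to several places were left out of library sizes.

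All genes passing filterByExpr (9130) were fitted together over 9 libraries with edgeR 4.0.16 in R 4.3.3 (TMM factors, quasi-likelihood F test, Benjamini-Hochberg over all genes tested), and a gene was called at an adjusted p under 0.05. All adjusted p-values printed are edgeR's unless another test is named. The SE is the log2 fold change divided by the square root of F. One read is worth 0.227 to 0.579 CPM. The method was tested on simulated counts. There each gene had the same spread in all 9 libraries, whereas here LPE and CPE replicates were noisier than those of T. The simulation therefore does not show how the method performs on these libraries. The members and lists were chosen with earlier results of these data known. Every member is accounted for, and values in every library are given for those called with at least a 2-fold change. Alternatives were DESeq2 1.42.0, other scalings, no count filter, reads on either strand, 2-media fits, a replicate block and leaving out each library. Replicate numbers in the labels name no shared culture. Promoters came from RefSeq, build GRCr8, a different build from rn6, and were matched by symbol (31 of 34).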

Additional observations from a re-analysis of the deposited data

How the results depend on the processing

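Of the 47 calls among the members over the 3 comparisons, 0 changed direction in any of the 17 alternatives, 38 passed in all of them, and 9 were lost in at least 1 (those of Slc2a1 and Pfkl in LPE against T, of Gpi, Pdk1 and Pdk2 in CPE against T and of Pgk1, Slc16a1, Pdk3 and Tkt in CPE against LPE). With all libraries kept, 4 of these were lost in at least 1 alternative (Pdk1 in CPE against T, and Pgk1, Pdk3 and Tkt in CPE against LPE). The 47 and the 38 include the calls of Ndrg1 in CPE against T and in CPE against LPE. Ndrg1 met the count rule only through CPE, so that these calls held is no sign of stability. Members called higher in CPE than in LPE, Ndrg1 always among them, numbered 7 with all libraries (6 without Ndrg1). The number was 4 to 7 when 1 library was left out, and 4 without CPE replicate 1, 2 or 3. With the replicate number as a block it was 5, since the adjusted p of Pgk1 became 0.0537 and that of Pdk3 0.0671. Tkt, lower in CPE, then had 0.072. The block changed no other call of a member. Of 43 calls of 19 other pathway genes, 5 were lost in at least 1 alternative and 0 turned direction. The block ended those of Ero1a in CPE against T (0.0651) and of Pgls (0.0527) and P4hb (0.063) in CPE against LPE. Calls of the remaining genes of those lists were not recomputed. Same-numbered libraries did not visibly deviate together (correlations of deviations -0.0266 to 0.0118 over 9 pairs, against -0.0472 to 0.0352 for other numbers). With 3 noisy libraries per medium this cannot exclude a shared culture or batch, and the labels do not say what the number means.

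Of 55 values not called, 14 passed in at least 1 alternative and 15 turned sign, none while passing. The 14 include those of Pfkfb3 in CPE against T and in CPE against LPE, a gene that needed its CPE libraries to meet the count rule. Eno1 in LPE against T (-0.01) was 0.0103 with DESeq2 and with its size factors, 0.0269 with only the 2 media and 0.013 without the 20 highest counted genes in scaling, and Pgd was 0.005 with only the 2 media. Leaving out 1 library, log2 fold changes in LPE against T ran from -0.0682 to 0.0714 for Eno1, -0.114 to 0.0842 for Pgd, -0.855 to 0.186 for Bnip3, -0.148 to 0.195 for Egln3, -0.493 to 0.0508 for Pdk1, -0.762 to 0.319 for Pfkfb3 and -0.790 to 0.259 for Pfkm. In CPE against T they ran from -0.0732 to 0.286 for Egln3. In CPE against LPE they ran from -0.152 to 0.099 for Aldoa, -0.127 to 0.271 for Egln3, -0.205 to 0.0663 for Gpi, -0.759 to 0.396 for Pfkm, -0.173 to 0.0237 for Pgd, -0.0822 to 0.762 for Slc2a3 and -0.135 to 0.448 for Taldo1. The cause was not tested. Depth sets a floor for the low members, as 3 reads are worth 0.681 to 1.74 CPM. It is not the only limit, since LPE libraries had more gene reads than T libraries but fewer genes with a read.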
